A study of Mus musculus with 2 samples.

Results

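Mature dendritic cells that carry Ccr7 and Fscn1 were 103 of the 21208 gingival cells that passed the quality filter, 56 in the diabetic library and 47 in the normoglycemic library. They were chosen by their own transcript counts. A cell entered the class when it held at least 3 UMIs (unique molecular identifiers, each standing for 1 captured RNA molecule) of Ccr7 plus Fscn1 with at least 1 of each, and at least 5 UMIs of Cd74. It also had under 3% of its UMIs in the neutrophil genes S100a8 plus S100a9, under 10 UMIs per 10000 of the macrophage genes C1qa, C1qb and C1qc together, and no UMI of the T-cell gene Cd3e or the B-cell gene Cd79a. The monocyte and macrophage genes Fn1, Vcan, F13a1 and Chil3 had to stay under 5 UMIs together. The levels of these genes in the class are a description and carry no finding.

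The cells came from mouse gingiva, in 1 diabetic library and 1 normoglycemic library of droplet-captured single-cell RNA, each made from a pool of 4 mice. The diabetic mice had type-I diabetes induced with streptozotocin. The mice of both libraries were CD11CCre-/-;FoxoLL on a mixed C57B6 - FVB background, so their Foxo1 exon 2 lay between loxP sites, no Cre was present, and Foxo1 protein was called normal. Both groups had bacterially induced inflammation for 2 weeks, then a further 2 weeks before tissue was taken. Age and sex are not given in the sources used here. The sort kept live CD45+ cells without CD31 or Ter-119, with a 20% enrichment of CD11c+ CD45+ cells, so every share below is a share of an enriched sort. With 1 library per condition there was no replicate check and no test of diabetes. All intervals are 95% intervals that cover counting error only, and they are too narrow where UMIs of 1 cell are not independent.

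When a dendritic cell matures it makes CCR7, the receptor that guides it along CCL19 and CCL21 into lymph vessels and lymph nodes, and fascin (Fscn1), which bundles the actin of its long processes. It also displays costimulatory molecules such as CD40, CD80 and CD86, which a T cell needs beside antigen, together with inhibitory molecules such as PD-L1 (Cd274). RelB, a subunit of the non-canonical NF-kappa-B pathway, is a known regulator of this state. In gingiva, type 1 (Xcr1, Clec9a) and type 2 (Cd209a, Clec10a, Mgl2) conventional dendritic cells and the Langerhans cells of the epithelium are possible sources of such cells.

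Levels are given as counts per 1000000 UMIs (CPM), summed over the cells of a class in a library. The class was checked against 5 marker genes, of which Ccr7 (chr11:99144196-99155077, minus strand of GRCm38) and Fscn1 (chr5:142960343-142973185, plus strand) belonged to the rule. Ccr7 stood at 2444 CPM in diabetic and 3034 CPM in normoglycemic mature cells, and Fscn1 at 1631 CPM in diabetic and 2560.01 CPM in normoglycemic mature cells. Outside the rule, the chemokine Ccl22 (chr8:94745590-94751699, plus strand) stood at 2297 CPM in diabetic and 3702 CPM in normoglycemic mature cells, against 28.3 and 59.02 CPM in diabetic and normoglycemic type 1-like cells and 52.7 and 115 CPM in diabetic and normoglycemic type 2-like cells. The calcium channel subunit Cacnb3 stood at 289.6 CPM in diabetic and 434 CPM in normoglycemic mature cells, against 5.25 and 2.57 CPM in diabetic and normoglycemic type 1-like cells and 0.543 and 0 CPM in diabetic and normoglycemic type 2-like cells. Relb stood at 396 CPM in diabetic and 503 CPM in normoglycemic mature cells, against 26.3 and 35.9 CPM in diabetic and normoglycemic type 1-like cells and 48.9 and 49.5 CPM in diabetic and normoglycemic type 2-like cells. These 3 genes outside the rule were higher in the mature cells than in either conventional class of the same library. The rule itself made Ccr7 and Fscn1 higher there, since conventional cells could hold at most 1 UMI of the pair.

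Within the class the markers varied widely from cell to cell. Ccr7 had a median of 33 UMIs (lowest 2, highest 116) in diabetic and 43 UMIs (lowest 7, highest 107) in normoglycemic cells. Fscn1 had a median of 15 UMIs (lowest 1, highest 105) in diabetic and 32 UMIs (lowest 1, highest 148) in normoglycemic cells. Ccl22 had a median of 6 UMIs (lowest 0, highest 289) in diabetic and 25 UMIs (lowest 0, highest 537) in normoglycemic cells, and was found in 40 of 56 diabetic and 41 of 47 normoglycemic cells. Cacnb3 was found in 46 of 56 diabetic and 43 of 47 normoglycemic cells and Relb in 53 of 56 diabetic and 43 of 47 normoglycemic cells. The ranges of the libraries overlapped for every one of the 5 genes.

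Just inside the limit, 8 diabetic and 5 normoglycemic cells had 3 to 20 UMIs of the pair, with Cacnb3 at 137 CPM in the diabetic and 35.0 CPM in the normoglycemic ones. Ccl22 stood at 3216 CPM in the diabetic and 1279 CPM in the normoglycemic ones, but 240 of the 305 diabetic UMIs came from 1 cell. The lysozyme gene Lyz2 stood at 1075 and 596 CPM in them, against 170 and 57.5 CPM in cells with over 20 UMIs of the pair. The type 2 gene Cd209a was found in 25% and 40% of them, against 2.08% and 0%. By these genes they were less distinct from conventional cells, yet they enter the sums of the class. Just outside, 62 diabetic and 73 normoglycemic cells had 1 or 2 UMIs of the pair, with Ccl22 at 67.7 CPM and 178 CPM in that order and Cacnb3 at 2.08 and 2.80 CPM. A further 71 diabetic and 90 normoglycemic cells had at least 3 UMIs of the pair but none of 1 of its genes. Ccr7 stood at 839 CPM in those diabetic and 767 CPM in those normoglycemic cells, and Fscn1 at 15.7 and 16.4 CPM. Their Cacnb3 was at 16.6 CPM in diabetic and 30.4 CPM in normoglycemic cells, above that of the cells with 1 or 2 UMIs of the pair.

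Depth in the class was similar in both libraries, with a median of 14325 UMIs and 2720 genes per diabetic cell and 15449 UMIs and 2982 genes per normoglycemic cell. The libraries shared 32 barcodes, none of them of a mature dendritic cell. Neutrophil markers summed to 1601 CPM in diabetic and 4032 CPM in normoglycemic mature cells, against 43608 and 47802 CPM in all other cells of those libraries. Most of the mature sums came from S100a8 (489 and 1368 CPM) and S100a9 (932 and 2296 CPM). The rule limits both genes, so the low sums beside other cells were partly set in advance. Epithelial markers summed to 464 CPM in diabetic and 111 CPM in normoglycemic mature cells, against 5005 and 162 CPM in all other cells. Epcam, 1 of these markers, stood at 194 and 107 CPM in diabetic and normoglycemic mature cells. Of the 9 epithelial markers, 8 were found in diabetic and 3 in normoglycemic mature cells, and Krt19 was at 0 in both. In 14 diabetic and 6 normoglycemic cells they reached 5 UMIs together. T and NK cell markers summed to 8.24 and 72.8 CPM, against 233 and 489 CPM in all other cells. B and plasma cell markers summed to 38.9 and 22.8 CPM, with Ms4a1 at 0, against 2447 and 643 CPM. The rule itself set Cd3e of the T and NK markers and Cd79a of the B and plasma markers to 0. Sex-linked transcripts called 7 cells female and 36 male in the diabetic library, against 17 female and 22 male in the normoglycemic library. The part of these differences in the results on diabetes was not tested, and values within called sex are given beside some of the genes below.

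**Figure D1:**
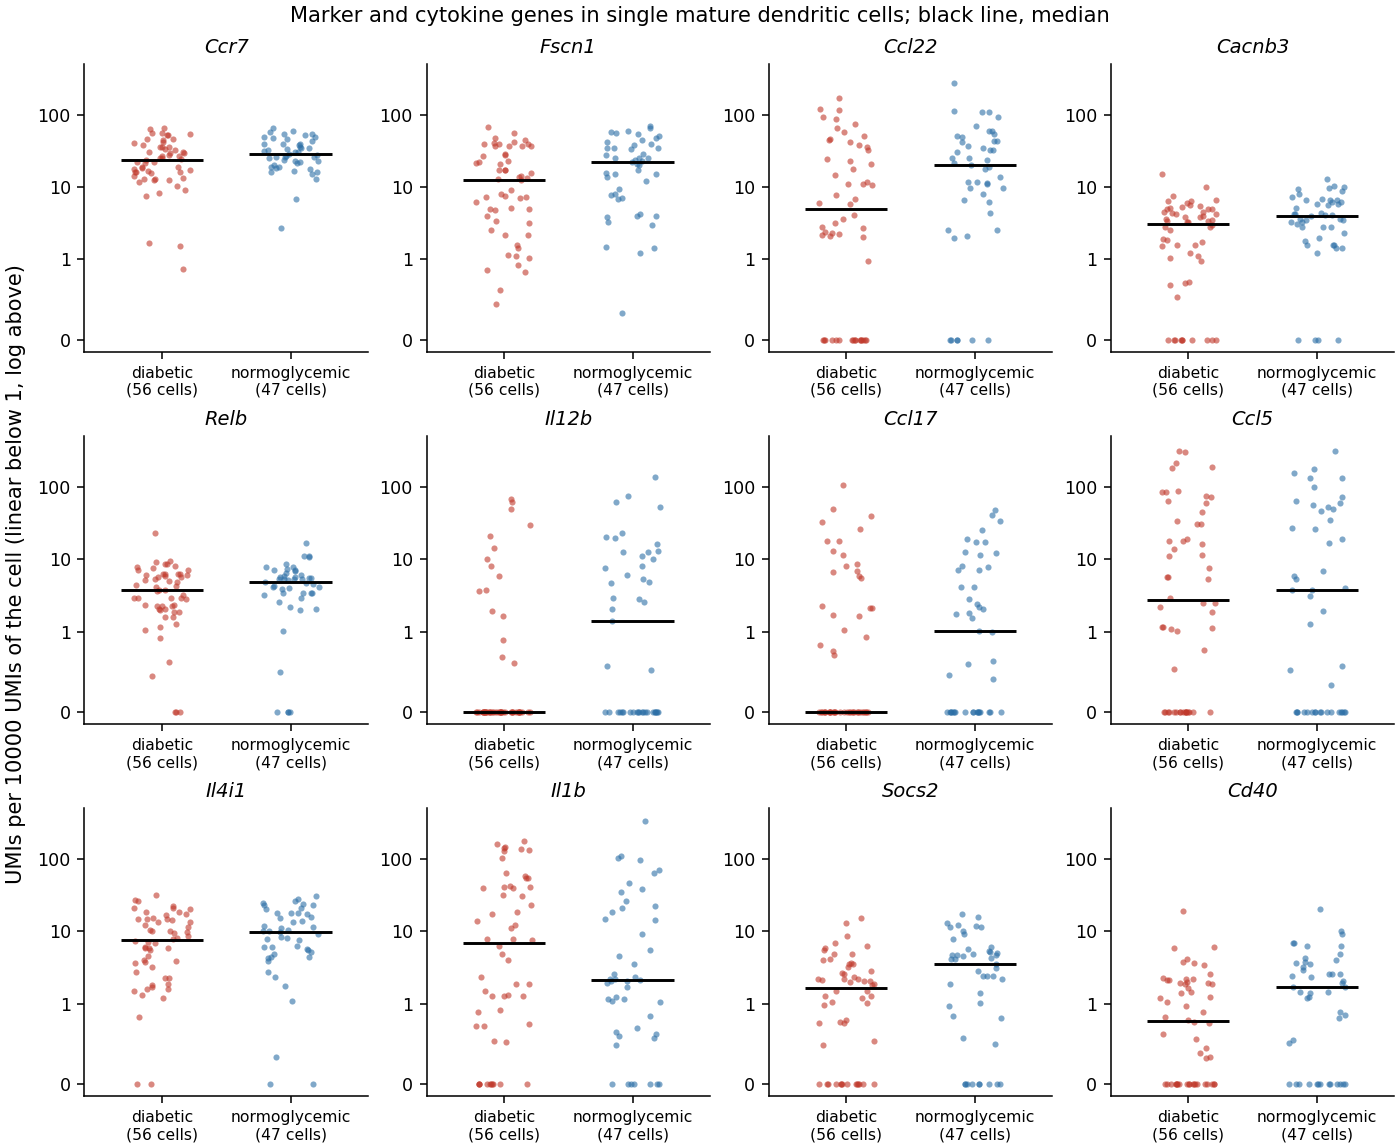
Each point is 1 mature dendritic cell, its height the UMIs of the gene per 10000 UMIs of the cell (linear below 1, log above), in 12 panels of marker, chemokine, cytokine and costimulation genes, with diabetic cells left of normoglycemic cells and a black line at the median. The median of Ccl22 was 5.0 per 10000 in diabetic and 20.3 in normoglycemic cells, and that of Il1b 6.92 and 2.13, while the ranges overlapped in every panel.

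Mature dendritic cells were rare in both libraries. They were 0.546% of filtered cells in the diabetic library (Clopper-Pearson interval 0.413 to 0.708%) and 0.429% in the normoglycemic library (0.316 to 0.570%), a difference of 0.117 percentage points (Newcombe interval -0.0721 to 0.310) that was not detectable at this depth. Among gated dendritic cells (mature, type 1-like and type 2-like) they were 16.8% in the diabetic library (12.9 to 21.2%) and 9.71% in the normoglycemic library (7.22 to 12.7%), a difference of 7.06 points (2.37 to 12.02). The type 2-like cells of that denominator were 1.05% of filtered cells in the diabetic and 2.44% in the normoglycemic library, while type 1-like cells were 1.66% and 1.55%. The type 2-like gate required Cd209a, which stood at 443 CPM in diabetic and 833 CPM in normoglycemic type 2-like cells. The part of that gene in the number of type 2-like cells was not tested. Cells that met all limits but those on Ccr7 and Fscn1 numbered 842 in the diabetic and 856 in the normoglycemic library. Set against type 1-like cells alone, mature cells were 24.8% in the diabetic and 21.7% in the normoglycemic library, a difference of 3.12 points (-4.76 to 10.9). Set against type 2-like cells alone the difference was 19.2 points (11.1 to 27.5).

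The mature cells were set beside conventional dendritic cells of their own library, 170 diabetic and 170 normoglycemic type 1-like cells and 108 diabetic and 267 normoglycemic type 2-like cells. Of 5374 genes measured, 410 (7.63%) were at least 2-fold higher in all 4 ratios (over each conventional class in each library) and 445 (8.28%) at least 2-fold lower. The cells were chosen by their expression, so these counts and the genes below describe the class and test nothing.

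Among the genes that led, several encode secreted or surface proteins. Il12b (chr11:44400063-44414033, plus strand), the p40 chain shared by IL-12 and IL-23, stood at 417 CPM in diabetic and 1049 CPM in normoglycemic mature cells. It was at 0 in diabetic type 1-like cells, so the level was at least 476-fold higher there, taking 3 UMIs of that class as the floor, and it was at 8.84 CPM in normoglycemic type 1-like cells. Tnfrsf9, the costimulatory receptor 4-1BB, stood at 141 CPM in diabetic and 256 CPM in normoglycemic mature cells and was at least 161-fold higher than in diabetic type 1-like cells, where it was at 0. Il2ra, the alpha chain of the IL-2 receptor, stood at 138 CPM in diabetic and 166 CPM in normoglycemic mature cells, against 1.46 and 2.28 CPM in diabetic and normoglycemic type 1-like cells and 4.34 and 3.79 CPM in diabetic and normoglycemic type 2-like cells. Il4i1, a secreted amino acid oxidase that restrains T cells, stood at 1018 CPM in diabetic and 1194 CPM in normoglycemic mature cells, against 0.875 and 2.85 CPM in diabetic and normoglycemic type 1-like cells and 22.3 and 15.6 CPM in diabetic and normoglycemic type 2-like cells. H2-M2, a non-classical MHC class I gene, stood at 139 CPM in diabetic and 281 CPM in normoglycemic mature cells and was at 0 in type 1-like cells of both libraries, at least 159-fold higher in the diabetic and at least 329-fold higher in the normoglycemic library.

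Other leading genes act inside the cell. Mreg (melanoregulin, which takes part in organelle transport) stood at 147 CPM in diabetic and 193 CPM in normoglycemic mature cells and was at 0 in type 2-like cells of both libraries, at least 90.3-fold higher in the diabetic and at least 288-fold higher in the normoglycemic library. Socs2, a suppressor of cytokine receptor signalling, stood at 217 CPM in diabetic and 394 CPM in normoglycemic mature cells, against 0.292 and 0.570 CPM in diabetic and normoglycemic type 1-like cells and 2.71 and 11.1 CPM in diabetic and normoglycemic type 2-like cells. Serpinb6b, an intracellular protease inhibitor, stood at 652 CPM in diabetic and 1045 CPM in normoglycemic mature cells. Eno3, a muscle-type enolase, stood at 288 CPM in diabetic and 213 CPM in normoglycemic mature cells, and Zmynd15 at 494 CPM in diabetic and 624 CPM in normoglycemic mature cells. Nudt17, Anxa3 and the antisense RNA Gm13546 completed the list. Because Gm13546 is antisense, its reads cannot be told apart from those of a gene on the other strand unless counting used strand.

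Of the genes that led on the lower side, Ccr2, the receptor that draws monocytes and precursors from blood, stood at 16.5 CPM in diabetic and 2.86 CPM in normoglycemic mature cells, against 194 and 216 CPM in diabetic and normoglycemic type 1-like cells and 408 and 337 CPM in diabetic and normoglycemic type 2-like cells. Naaa, a lysosomal amidase common to type 1 cells, stood at 30.6 CPM in diabetic and 22.8 CPM in normoglycemic mature cells, against 1401 and 1406 CPM in diabetic and normoglycemic type 1-like cells and 282 and 339.7 CPM in diabetic and normoglycemic type 2-like cells. Alox5ap, the activating protein of 5-lipoxygenase, stood at 113 CPM in diabetic and 65.7 CPM in normoglycemic mature cells, against 968 and 922 CPM in diabetic and normoglycemic type 1-like cells and 859 and 787 CPM in diabetic and normoglycemic type 2-like cells. Plbd1, Gpr141, Cyth4, Dpysl2, Itgb7, Tep1 and Tm6sf1 were the other leading lower genes.

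**Figure D2:**
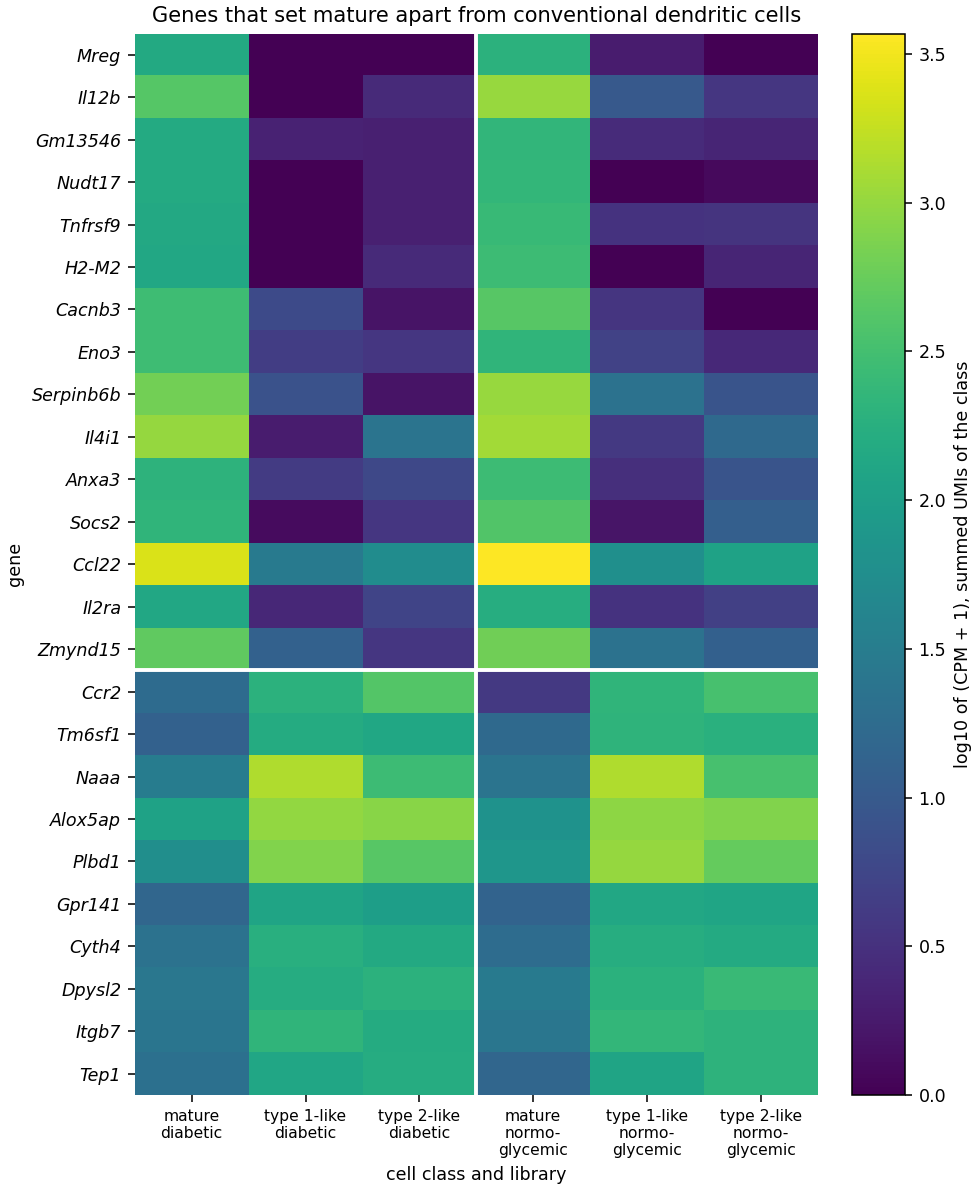
Colour gives log10 of (CPM + 1) for the 15 leading higher genes above the white line and the 10 leading lower genes below it, in mature, type 1-like and type 2-like cells, the diabetic library left of the normoglycemic library. Ccl22 is the brightest of the higher genes in both libraries, and Naaa the brightest of the lower genes in type 1-like cells.

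Because RelB acts through NF-kappa-B sites, the stretches before the start of the leading and marker genes were searched for the NF-kappa-B consensus, a motif of 10 letters, on both strands. RefSeq promoters of GRCm38.p6 were in the table for 13 of 18 genes, and 250 bases before the start were read. The motif was in 3 of the 13 genes (23.1%), against 2225 of 27025 genes (8.23%) in the whole table. These were Il2ra (chr2:11642542-11642791, plus strand), Tnfrsf9 from its second listed start (chr4:150927749-150927998, plus strand) and H2-M2 (chr17:37483555-37483804, minus strand), with the first match 201, 43 and 180 bases before the start. Overlapping matches are counted once per gene. Ccl22 (chr8:94745434-94745683, plus strand) and Il12b (chr11:44399813-44400062, plus strand) are shown beside them as secreted products of the class, and these letters were not in their windows. Capitals mark the motif, and each line runs 5′ to 3′ toward the start.
Il2ra: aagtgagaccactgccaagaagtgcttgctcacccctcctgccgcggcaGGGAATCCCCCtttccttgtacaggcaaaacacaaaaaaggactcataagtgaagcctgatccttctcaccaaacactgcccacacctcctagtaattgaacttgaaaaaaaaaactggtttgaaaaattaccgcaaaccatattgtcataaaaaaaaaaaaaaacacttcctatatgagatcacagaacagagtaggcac
Tnfrsf9: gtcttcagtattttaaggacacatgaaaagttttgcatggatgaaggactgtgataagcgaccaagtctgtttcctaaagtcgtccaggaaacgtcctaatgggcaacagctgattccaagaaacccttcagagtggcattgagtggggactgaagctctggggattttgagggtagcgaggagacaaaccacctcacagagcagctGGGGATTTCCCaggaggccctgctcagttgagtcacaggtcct
H2-M2: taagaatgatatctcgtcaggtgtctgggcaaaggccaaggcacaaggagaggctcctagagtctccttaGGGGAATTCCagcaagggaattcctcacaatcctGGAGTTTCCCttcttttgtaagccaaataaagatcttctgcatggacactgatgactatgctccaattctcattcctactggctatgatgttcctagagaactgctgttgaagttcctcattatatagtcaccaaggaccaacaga
Ccl22: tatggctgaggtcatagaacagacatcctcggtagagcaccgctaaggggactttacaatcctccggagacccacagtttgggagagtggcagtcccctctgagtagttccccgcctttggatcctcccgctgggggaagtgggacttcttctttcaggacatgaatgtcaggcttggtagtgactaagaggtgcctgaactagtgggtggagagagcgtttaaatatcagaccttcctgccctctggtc
Il12b: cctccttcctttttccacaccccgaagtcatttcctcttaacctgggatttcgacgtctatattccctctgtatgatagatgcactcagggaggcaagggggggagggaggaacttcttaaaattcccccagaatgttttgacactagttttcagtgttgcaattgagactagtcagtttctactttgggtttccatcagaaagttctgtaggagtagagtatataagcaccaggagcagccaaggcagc
Promoters of Ccr7, Relb, Anxa3, Socs2 and Zmynd15 are not shown.

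Gene groups were counted the same way, against 7.63% higher and 8.28% lower over all genes. Of the migration and cytoskeleton list, 18 of 25 measured members were higher and 2 lower (the integrins Itgax and Itgb2). Of NF-kappa-B subunits and regulators, 9 of 23 measured members were higher and 0 lower, the higher ones being Relb, Nfkb2, Nfkbib, Tnip1, Birc2, Traf1, Traf2, Traf3 and Map3k14, which encodes the kinase NIK of the non-canonical pathway. Of the regulatory and checkpoint genes, 8 of 15 measured members were higher and 1 lower, among the higher ones Cd274, Pdcd1lg2 (PD-L2), Cd200, Socs1, Aldh1a2, which makes retinoic acid, and Itgb8, and Lgals9 the lower one. Of costimulation and maturation genes, 4 of 11 measured members were higher and 0 lower, the higher ones being Cd40, Il15ra, Tnfrsf4 and Tnfrsf9. Over the 4 ratios the list medians lay at log2 1.71 to 2.69 for migration, 0.53 to 1.97 for NF-kappa-B, 1.42 to 2.63 for regulatory and 0.69 to 2.10 for maturation genes, beside -0.23 to -0.11 for all genes. These lists hold genes known from earlier work on such cells, so their counts are not independent evidence of the class.

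Of chemokines, 6 of 14 measured members were higher and 1 lower (Ccl5, Ccl22, Cxcl1, Cxcl2, Cxcl3 and Cxcl16 higher, Ccl2 lower). Neutrophil markers also stood higher, at 1601 CPM in diabetic mature cells against 955 CPM in type 1-like and 1124 CPM in type 2-like cells. In the normoglycemic library they stood at 4032 CPM, against 1597 and 1270 CPM in that order. The part of neutrophil RNA in Cxcl1, Cxcl2 and Cxcl3 was not tested. Of MHC class I presentation genes, 10 of 23 measured members were higher and 0 lower, while of MHC class II genes 1 of 16 measured members were higher and 3 lower (H2-Eb2 higher, and H2-DMa, H2-DMb1 and March1 lower). Of cholesterol and lipid genes, 6 of 16 measured members were higher and 1 lower, with the sterol synthesis genes Hmgcs1, Sqle, Fdps, Fdft1 and Idi1 and the fatty acid carrier Fabp5 higher and Scd2 lower. Of cell survival and death genes, 5 of 19 measured members were higher and 0 lower (Bcl2a1a, Bcl2a1b and Bcl2a1d among them), and the 3 Bcl2a1 genes are near-identical copies whose reads may be split between them. Of cell cycle genes, 0 of 21 measured members were higher and 12 lower, and of ribosomal protein genes 0 of 60 measured members were higher and 0 lower.

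The genes that define the possible source cells were found at different rates. Clec9a was found in 1 diabetic and 2 normoglycemic cells, Xcr1 in 2 diabetic and 3 normoglycemic cells and Cadm1 in 2 diabetic and 4 normoglycemic cells of the 56 and 47. On the type 2 side, Cd209a was found in 3 diabetic and 2 normoglycemic cells, Clec10a in 7 diabetic and 3 normoglycemic cells and Mgl2 in 7 diabetic and 5 normoglycemic cells. Some were frequent. Batf3, a transcription factor of the type 1 list, was found in 73.2% of diabetic and 72.3% of normoglycemic cells, against 0.649% of diabetic and 1% of normoglycemic B-like cells, which should lack it and had median depths of 4520 UMIs in the diabetic and 4770.5 UMIs in the normoglycemic library. Its level was 175 CPM in diabetic and 223 CPM in normoglycemic mature cells, against 149.9 and 122 CPM in diabetic and normoglycemic type 1-like cells and 65.2 and 45.7 CPM in diabetic and normoglycemic type 2-like cells. Irf8, a transcription factor that type 1 cells need, was found in 75% of diabetic and 82.98% of normoglycemic cells, against 46.8% of diabetic and 48% of normoglycemic B-like cells, which also use it. Its level was 575 CPM in diabetic and 935 CPM in normoglycemic mature cells, against 814 and 968 CPM in diabetic and normoglycemic type 1-like cells and 21.2 and 40.8 CPM in diabetic and normoglycemic type 2-like cells. Sirpa, a surface receptor of type 2 cells, was found in 39.3% of diabetic and 40.4% of normoglycemic cells, against 7.06% of diabetic and 7.65% of normoglycemic type 1-like and 81.5% of diabetic and 86.5% of normoglycemic type 2-like cells and 8.44% of diabetic and 6.33% of normoglycemic B-like cells. Flt3, the receptor of the dendritic cell growth factor, was found in 71.4% of diabetic and 80.9% of normoglycemic cells, against 6.49% of diabetic and 8.67% of normoglycemic B-like cells. Epcam, a marker of Langerhans cells, was found in 39.3% of diabetic and 38.3% of normoglycemic cells, against 70.6% of diabetic and 71.8% of normoglycemic type 1-like and 50% of diabetic and 54.3% of normoglycemic type 2-like cells and 9.09% of diabetic and 4% of normoglycemic B-like cells. Cd207 (langerin) was found in 12.5% of diabetic and 17.02% of normoglycemic cells, against 14.7% of diabetic and 30.6% of normoglycemic type 1-like and 0.926% of diabetic and 10.5% of normoglycemic type 2-like cells and 1.95% of diabetic and 0% of normoglycemic B-like cells, where 0 of 300 cells allows a share of up to 1%. After each cell was thinned to 2000 UMIs, Epcam was found in 14.3% of diabetic and 10.6% of normoglycemic cells. The thinned share was 27.1% of diabetic and 27.6% of normoglycemic type 1-like cells, and 13.9% of diabetic and 24.2% of normoglycemic type 2-like cells. At this equal depth Epcam was less frequent than in type 1-like cells in both libraries. It was less frequent than in type 2-like cells in the normoglycemic library only. Mfge8, a protein that bridges dying cells to phagocytes, was found in 33.9% of diabetic and 53.2% of normoglycemic cells, and after thinning in 21.4% of diabetic and 40.4% of normoglycemic cells.

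The cells also varied along the level of the pair itself. They were split by Ccr7 plus Fscn1 per 10000 UMIs into 3 groups from low to high, of 19, 18 and 19 diabetic cells and 16, 15 and 16 normoglycemic cells. Median Ccl22 per 10000 UMIs from low to high was 0.984, 8.89 and 14.6 in diabetic cells and 9.57, 23.8 and 36.8 in normoglycemic cells, so it was highest in the group with most of the pair in both libraries. Median Cacnb3 was 1.12, 3.47 and 3.96 in diabetic cells and 1.77, 4.19 and 6.03 in normoglycemic cells. Median Il1b ran the other way, at 31.8, 1.69 and 3.96 in diabetic cells and 10.04, 2.17 and 0.638 in normoglycemic cells, and was highest in the group with least of the pair. The MHC class II gene H2-Aa had medians of 122, 67.9 and 48.3 in diabetic cells and 40.1, 19.1 and 22.6 in normoglycemic cells, again highest in the low group. Median depth from low to high was 16429, 14219.5 and 13130 UMIs in diabetic cells and 12453.5, 16716 and 15685.5 UMIs in normoglycemic cells, so it did not follow the pair in 1 direction in both.

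Across cells of a library the genes most like the pair, by the lower of their 2 rank correlations, were Tmem123 (Spearman's rho 0.63 over 56 diabetic and 0.68 over 47 normoglycemic cells), Mob1a (0.50 and 0.48) and Ccl22 (0.48 and 0.47). Pcgf5, Arpc5, Ctnna1, Basp1, Net1, Stat4 and Cd63 followed. The ribosomal gene Rps18 was the most unlike by the higher of the pair of correlations (-0.47 and -0.45). These values are given as a description, since the cells share a library and each value is divided by the depth of its cell.

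Il12b was found in part of the cells. At 5 or more UMIs, 8 of 56 diabetic cells held both Il12b and Ccl22, 2 held Il12b without Ccl22, 24 held Ccl22 without Il12b and 22 held neither. Of 47 normoglycemic cells, 19 held both, 0 held Il12b without Ccl22, 19 held Ccl22 without Il12b and 9 held neither. Ccl17, which binds the same receptor (CCR4) as Ccl22, was at that level with Ccl22 in 14 diabetic and 18 normoglycemic cells, and without it in 1 diabetic and 0 normoglycemic cells.

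**Figure D3:**
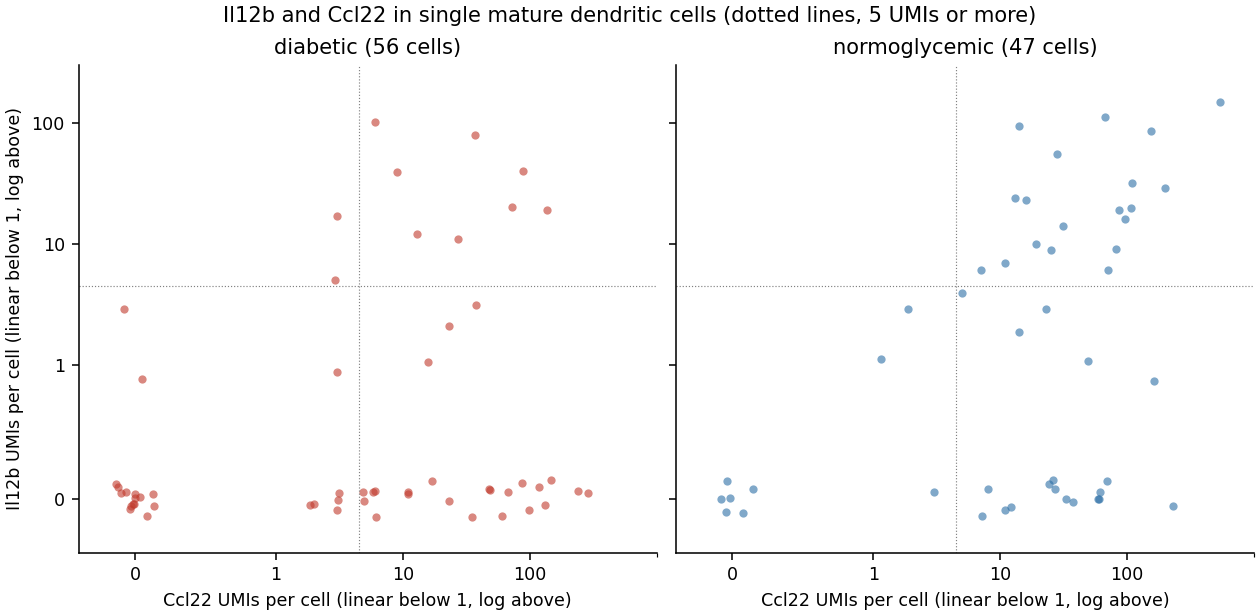
Each point is 1 mature dendritic cell, with Ccl22 UMIs across and Il12b UMIs up (linear below 1, log above, points at 0 spread slightly), the diabetic library left of the normoglycemic library, and dotted lines marking 5 UMIs. The upper right field holds 8 diabetic and 19 normoglycemic cells and the upper left field 2 and 0.

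Between the conditions, 4996 genes reached 20 CPM in at least 1 library. Of these, 589 (11.8%) were at least 1.5-fold higher in diabetic mature cells and 1029 (20.6%) at least 1.5-fold lower. A gene is called higher or lower below when its ratio passed 1.5-fold, and the counts of each group are read against these shares. Each ratio sets diabetic over normoglycemic, and brackets hold its exact conditional binomial interval. The median log2 ratio of all genes was -0.10. Of the genes past the fold, 36.4% were higher, against 45.7% with TMM scaling and 47.7% with median-ratio scaling, so the balance of the directions depended on the scaling.

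Of cytokine genes, 15 of 27 listed genes were measured, 2 of them higher and 7 lower. Il12b stood at 417 CPM in diabetic and 1049 CPM in normoglycemic cells, a ratio of 0.397 (0.349 to 0.451), and was found in 28.6% of diabetic and 55.3% of normoglycemic cells. Within called sex it stood at a ratio of 0.0942 in cells called female and 0.280 in cells called male. The interleukin 1 genes did not move together. Il1b had a median of 5.5 UMIs (lowest 0, highest 302) in diabetic and 3 UMIs (lowest 0, highest 558) in normoglycemic cells and stood at 3253 CPM in diabetic and 2491 CPM in normoglycemic cells, a ratio of 1.31 (1.23 to 1.39). Without the highest cell of each library, which held 10.9% of the diabetic and 31.98% of the normoglycemic UMIs, it stood at a ratio of 1.71. That normoglycemic cell also held 120 UMIs of the neutrophil gene S100a8, against a median of 2 UMIs in normoglycemic mature cells. The highest diabetic cell held 0 UMIs of S100a8. The part of neutrophil RNA in the Il1b ratio was not tested. Il1rn, which blocks the interleukin 1 receptor, stood at 146 CPM in diabetic and 519.7 CPM in normoglycemic cells, a ratio of 0.281 (0.227 to 0.345), and Il1a at 36.5 CPM in diabetic and 169.9 CPM in normoglycemic cells, with 58.1% of the diabetic UMIs in 1 cell. In type 1-like and type 2-like cells the ratios were 1.27 and 1.18 for Il1b, 0.181 and 0.443 for Il1rn, and 0.224 and 0.391 for Il1a. The conventional classes thus shared the direction of each of these genes. Tnf stood at 65.9 CPM in diabetic and 131 CPM in normoglycemic cells, a ratio of 0.502 (0.353 to 0.707). The list median was log2 -0.52 (order-statistic interval -1.83 to 0.04), an interval that included 0. It was 0.14 when all limits were applied after thinning to 2000 UMIs and -0.06 when cells with 1% or more of their UMIs in S100a8 plus S100a9 were left out, so its direction was not kept. Neutrophil markers moved with it, at 1601 CPM in diabetic and 4032 CPM in normoglycemic mature cells, and their part was not tested.

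Chemokine genes were divided: 13 of 25 listed genes were measured, 1 of them higher and 6 lower. Ccl22, which draws CCR4-bearing T cells, stood at 2297 CPM in diabetic and 3702 CPM in normoglycemic cells, a ratio of 0.620 (0.585 to 0.658), and within called sex at a ratio of 0.309 in cells called female and 0.514 in cells called male. Cxcl2, which draws neutrophils, stood at 3002 CPM in diabetic and 6501 CPM in normoglycemic cells, a ratio of 0.462 (0.440 to 0.485), and Ccl3 at 266 CPM in diabetic and 1712 CPM in normoglycemic cells, a ratio of 0.155 (0.134 to 0.179), with 46.5% of the diabetic UMIs in 1 cell. Ccl5, which draws T cells and monocytes, did not pass the fold, at 3125 CPM in diabetic and 2914 CPM in normoglycemic cells, a ratio of 1.07 (1.01 to 1.14), but within called sex it stood at a ratio of 0.305 in cells called female and 1.02 in cells called male. Ccl17 stood at 829 CPM in diabetic and 704 CPM in normoglycemic cells, a ratio of 1.18 (1.05 to 1.32), and at a ratio of 0.871 without the highest cell of each library. In type 1-like and type 2-like cells the ratios were 0.479 and 0.460 for Ccl22, 0.290 and 0.455 for Cxcl2, and 0.179 and 0.904 for Ccl3, all in the direction of mature cells. They were 0.123 and 1.94 for Ccl5 and 0.283 and 0.626 for Ccl17. Cx3cl1, the ligand of CX3CR1, stood at 20.01 CPM in diabetic and 74.2 CPM in normoglycemic cells, a ratio of 0.270 (0.146 to 0.474), and was found in 12 diabetic and 22 normoglycemic cells. The list median was log2 -0.57, and 0.20 when cells with 1% or more of their UMIs in S100a8 plus S100a9 were left out, so its direction was not kept under that limit.

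Costimulation genes were mostly lower: 12 of 14 listed genes were measured, 2 of them higher and 8 lower. Cd86 stood at 157 CPM in diabetic and 297 CPM in normoglycemic cells, a ratio of 0.527 (0.421 to 0.659). Cd40 stood at 148 CPM in diabetic and 259.9 CPM in normoglycemic cells, a ratio of 0.571 (0.451 to 0.720), and Cd80 at 106 CPM in diabetic and 176 CPM in normoglycemic cells, a ratio of 0.603 (0.455 to 0.798). In type 1-like and type 2-like cells the ratios were 0.821 and 0.740 for Cd86, 0.786 and 0.964 for Cd40, and 0.491 and 0.599 for Cd80. Of these, only Cd80 also passed the fold in the conventional classes. Tnfrsf9 stood at a ratio of 0.553 (0.435 to 0.701) and Tnfrsf4 (OX40) at a ratio of 0.547 (0.384 to 0.773). Tnfsf9, the ligand of 4-1BB, was higher at 544 CPM in diabetic and 264 CPM in normoglycemic cells, a ratio of 2.06 (1.73 to 2.46), and also stood at a ratio of 1.91 in type 1-like and 3.28 in type 2-like cells. Cd83 did not pass the fold, at 872 CPM in diabetic and 1018 CPM in normoglycemic cells. The list median was log2 -0.77 (order-statistic interval -0.92 to 0.22), against -0.10 over all genes, and -0.31 in type 1-like and -0.00 in type 2-like cells. Within called sex it was 0.16 in female cells (7 diabetic and 17 normoglycemic) and -0.997 in male cells (36 and 22), so the direction was not the same in both.

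Checkpoint and tolerance genes were lower or below the fold: 15 of 18 listed genes were measured, 0 of them higher and 6 lower. Socs2 stood at 217 CPM in diabetic and 394 CPM in normoglycemic cells, a ratio of 0.550 (0.454 to 0.665), and Cd200, the ligand of an inhibitory receptor, at 119 CPM in diabetic and 183 CPM in normoglycemic cells, a ratio of 0.651 (0.496 to 0.851). Tgfb1 stood at 65.9 CPM in diabetic and 117 CPM in normoglycemic cells, a ratio of 0.563 (0.394 to 0.801). Il4i1 at 1018 CPM in diabetic and 1194 CPM in normoglycemic cells and Cd274 at 263 CPM in diabetic and 317 CPM in normoglycemic cells did not pass the fold, and Pdcd1lg2 stood at 67.1 CPM in both libraries. Aldh1a2 stood at a ratio of 0.638 (0.429 to 0.946), but 61.3% of its normoglycemic UMIs came from 1 cell, and it stood at a ratio of 1.17 without the highest cells. The list median was log2 -0.35, with 0.26 in cells called female.

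The migration and cytoskeleton list was lower in part: 26 of 28 listed genes were measured, 1 of them higher and 8 lower. Its member Tbc1d4, whose part in migration was not tested, stood at 1376 CPM in diabetic and 2190.2 CPM in normoglycemic cells, a ratio of 0.628 (0.582 to 0.679). The alpha-4 integrin Itga4 stood at 374 CPM in diabetic and 664 CPM in normoglycemic cells, a ratio of 0.564 (0.487 to 0.652). The adhesion molecule Icam1 stood at 263 CPM in diabetic and 421 CPM in normoglycemic cells, a ratio of 0.623 (0.521 to 0.744). In the NF-kappa-B list, 23 of 23 listed genes were measured, 1 of them higher and 5 lower. That share of lower genes was near the 20.6% over all genes, so the count alone does not set the list apart. Traf3, which holds the non-canonical pathway in check, stood at 35.3 CPM in diabetic and 88.5 CPM in normoglycemic cells, a ratio of 0.399 (0.249 to 0.627), and Nfkb2, the precursor of its p52 subunit, at 160.1 CPM in diabetic and 241 CPM in normoglycemic cells, a ratio of 0.664 (0.526 to 0.837). Relb stood at a ratio of 0.787 (0.676 to 0.917) and did not pass the fold. The migration list had a median of log2 -0.41 (order-statistic interval -0.63 to -0.24), against -0.10 in type 1-like and -0.09 in type 2-like cells. The NF-kappa-B list had a median of log2 -0.38 (order-statistic interval -0.57 to -0.25), against -0.10 in type 1-like and -0.01 in type 2-like cells.

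Many interferon-response genes were lower. In the type I list, 21 of 37 listed genes were measured, 0 of them higher and 11 lower, and in the interferon-gamma list, 22 of 33 listed genes were measured, 1 of them higher and 13 lower. Irf7, which amplifies the type I response, stood at 7.06 CPM in diabetic and 68.5 CPM in normoglycemic cells, a ratio of 0.103 (0.0360 to 0.241), and at a ratio of 0.379 in type 1-like and 0.537 in type 2-like cells. Parp14 stood at 47.1 CPM in diabetic and 116 CPM in normoglycemic cells, a ratio of 0.407 (0.272 to 0.602). Isg15 did not reach the fold, at 258 CPM in diabetic and 349.8 CPM in normoglycemic cells. The type I list had a median of log2 -0.59 (order-statistic interval -1.29 to -0.28), against -0.27 in type 1-like and 0.17 in type 2-like cells. The interferon-gamma list had a median of log2 -0.96 (order-statistic interval -1.81 to -0.27), against -0.26 in type 1-like and 0.16 in type 2-like cells. In the interferon-gamma list, Gbp3, Gbp7, Irgm1, Ifi47 and Slfn1 had over 50% of their normoglycemic UMIs in 1 cell, and the list median without the highest cells was log2 -0.47.

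MHC class II genes stood the other way: 15 of 17 listed genes were measured, 5 of them higher and 2 lower. H2-Aa stood at 8942 CPM in diabetic and 5949.6 CPM in normoglycemic cells, a ratio of 1.503 (1.45 to 1.56), H2-Ab1 at 5442 CPM in diabetic and 4296 CPM in normoglycemic cells, a ratio of 1.27 (1.21 to 1.33), and H2-Eb1 at 173 CPM in diabetic and 79.96 CPM in normoglycemic cells, a ratio of 2.16 (1.58 to 3.0). Ciita, the transactivator of the class II genes, stood at 65.9 CPM in diabetic and 32.8 CPM in normoglycemic cells, a ratio of 2.01 (1.22 to 3.42). H2-DMb1, which helps load peptide, stood at 152 CPM in diabetic and 79.96 CPM in normoglycemic cells, a ratio of 1.899 (1.38 to 2.65). In conventional cells H2-Aa stood at a ratio of 0.825 in type 1-like and 0.860 in type 2-like cells, so the direction in mature cells was not shared by them. Cd74, a gene of the rule, is on this list. The interval of the list median, log2 0.35 (order-statistic interval -0.06 to 0.67), included 0. In the MHC class I list, 23 of 23 listed genes were measured, 0 of them higher and 6 lower, with B2m at 2743 CPM in diabetic and 3888 CPM in normoglycemic cells, a ratio of 0.706 (0.667 to 0.746), and Tapbp at 214 CPM in diabetic and 358 CPM in normoglycemic cells, a ratio of 0.598 (0.491 to 0.727).

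Ribosomal protein genes took 16.4% of UMIs in diabetic and 11.9% in normoglycemic mature cells. In their list, 60 of 60 listed genes were measured, 13 of them higher and 0 lower, with a median of log2 0.51 (order-statistic interval 0.44 to 0.55) against 0.08 in type 1-like and 0.13 in type 2-like cells, and the ratio was above 1 for all 60. In conventional type 1-like cells the share of UMIs was 20.4% in diabetic and 19.4% in normoglycemic cells. Nuclear-encoded respiratory chain genes had a median of log2 0.30 (order-statistic interval 0.20 to 0.36), with 49 of 57 above 0 and 5 past the fold (Uqcrq, Ndufb10, Ndufa8, Ndufs7 and Ndufs8). All 13 mitochondrially encoded genes were below 0, at a median of log2 -0.30 (order-statistic interval -0.83 to -0.15). A larger share for one gene group lowers the CPM of all others, and the part of the ribosomal share in the lower values above was not tested. For insulin and FOXO signalling, the pathway of the floxed gene, 29 of 41 listed genes were measured, 1 of them higher and 9 lower, with a median of log2 -0.28 (order-statistic interval -0.61 to -0.10) against -0.11 in type 1-like and -0.14 in type 2-like cells. Klf6 stood at 653 CPM in diabetic and 1035 CPM in normoglycemic cells, a ratio of 0.631 (0.564 to 0.706).

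**Figure D4:**
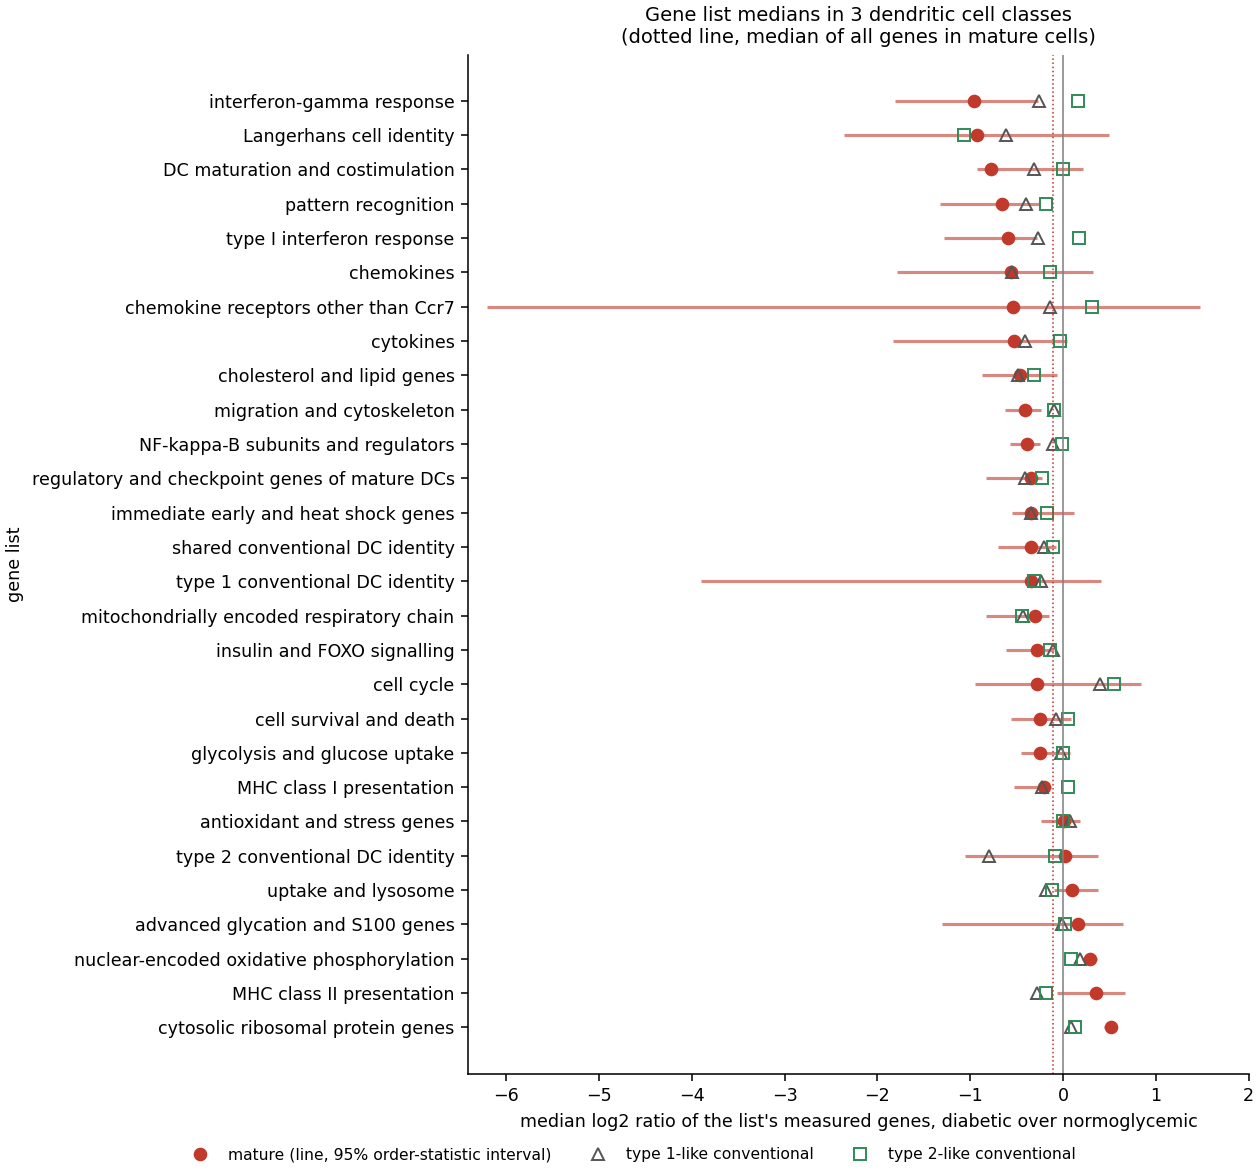
Points give the median log2 ratio, diabetic over normoglycemic, of each gene list in mature cells (filled, with its order-statistic interval), type 1-like cells (triangles) and type 2-like cells (squares). In mature cells the interferon-gamma list lies at -0.96 and the maturation list at -0.77, left of the dotted line at -0.10 for all genes, and the ribosomal list at 0.51 and the MHC class II list at 0.35 lie right of it.

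Of the genes that led over the whole table, Fabp5 (chr3:10012548-10016607, plus strand), a fatty acid carrier, stood at 2656 CPM in diabetic and 1131 CPM in normoglycemic cells, a ratio of 2.35 (2.17 to 2.55), and was found in 44 diabetic and 34 normoglycemic cells. In the conventional classes it stood at a ratio of 1.12 in type 1-like and 0.868 in type 2-like cells, and without the highest cells mature cells had a ratio of 2.84. In all cells outside the class Fabp5 stood at 279 CPM in diabetic and 171 CPM in normoglycemic cells, a ratio of 1.63, so its direction was shared by the rest of the sort. Without cells above the 95th percentile of UMIs its log2 ratio in mature cells was 0.98, against 1.23 with them. Within called sex it stood at a ratio of 6.21 in cells called female and 3.76 in cells called male. Prdm1, which encodes the repressor Blimp-1, stood at 67.1 CPM in diabetic and 19.99 CPM in normoglycemic cells, a ratio of 3.36 (1.85 to 6.52), and was found in 21 diabetic and 6 normoglycemic cells, with a ratio of 2.25 in cells called female and 11.03 in cells called male. Hebp1, a heme-binding protein, stood at 227 CPM in diabetic and 94.2 CPM in normoglycemic cells, a ratio of 2.41 (1.81 to 3.24), and Stxbp6 at 97.7 CPM in diabetic and 25.7 CPM in normoglycemic cells, a ratio of 3.802 (2.26 to 6.73). Gm10076 stood at 729 CPM in diabetic and 189.9 CPM in normoglycemic cells, a ratio of 3.84 (3.18 to 4.66), and at 476 CPM in diabetic and 143 CPM in normoglycemic cells outside the class, so its direction was shared by the rest of the sort. Gm10260, at 341 CPM in diabetic and 119.9 CPM in normoglycemic cells, also stood higher in the diabetic library outside the class. The reads of such gene models may be shared with near-identical copies.

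Fbxo4 stood at 57.7 CPM in diabetic and 9.99 CPM in normoglycemic cells, a ratio of 5.77 (2.601 to 15.1), was found in 16 diabetic and 7 normoglycemic cells and stood at a ratio of 5.497 without the highest cells. For the other genes that led on this side, 1 or a few cells held much of the UMIs. AY761185 and Hamp were at 0 in normoglycemic cells and found in 2 diabetic cells each, at least 28.0-fold and 26.9-fold higher by the floor of 3 UMIs, with 96.1% and 73.5% of their UMIs in 1 cell. Gm15056 stood at 209.6 CPM in diabetic and 49.97 CPM in normoglycemic cells and had 97.1% of its normoglycemic UMIs in 1 cell. Gm26917 stood at 115 CPM in diabetic and 14.3 CPM in normoglycemic cells, a ratio of 8.08 (4.21 to 17.4), and at a ratio of 2.37 without the highest cells. Pgf, a growth factor of the VEGF family, stood at 114 CPM in diabetic and 37.1 CPM in normoglycemic cells, a ratio of 3.08 (1.98 to 4.94), and at a ratio of 1.26 without the highest cells, with a ratio of 0.789 in cells called female and 13.2 in cells called male.

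Of the genes that led on the lower side, Mfge8 (chr7:79133768-79149060, minus strand) stood at 289.6 CPM in diabetic and 1493 CPM in normoglycemic cells, a ratio of 0.194 (0.168 to 0.223), and was found in 19 diabetic and 25 normoglycemic cells, with a ratio of 0.0345 in cells called female and 0.289 in cells called male. It also stood at a ratio of 0.134 in type 1-like and 0.137 in type 2-like cells, so the direction was shared by the conventional classes. Uap1, an enzyme of the hexosamine pathway, stood at 182 CPM in diabetic and 511 CPM in normoglycemic cells, a ratio of 0.357 (0.294 to 0.432), and at a ratio of 0.982 in type 1-like and 0.442 in type 2-like cells. Nabp1 stood at 57.7 CPM in diabetic and 177 CPM in normoglycemic cells, a ratio of 0.326 (0.229 to 0.457), and Slfn5 at 36.5 CPM in diabetic and 126 CPM in normoglycemic cells, a ratio of 0.290 (0.186 to 0.442), though Slfn5 had a ratio of 1.304 in cells called female and 0.2998 in cells called male. Sod3, an extracellular superoxide dismutase, stood at 15.3 CPM in diabetic and 87.1 CPM in normoglycemic cells, a ratio of 0.176 (0.0886 to 0.323), and Nrg1, a ligand of ErbB receptors, at 23.5 CPM in diabetic and 84.2 CPM in normoglycemic cells, a ratio of 0.280 (0.159 to 0.471). C1qtnf12 stood at 15.3 CPM in diabetic and 99.9 CPM in normoglycemic cells, a ratio of 0.153 (0.0777 to 0.279), and Phc2 at 22.4 CPM in diabetic and 84.2 CPM in normoglycemic cells, a ratio of 0.266 (0.149 to 0.452). Cxcl9, an interferon-induced chemokine, stood at 4.71 CPM in diabetic and 124 CPM in normoglycemic cells, with 79.3% of its normoglycemic UMIs in 1 cell.

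**Figure D5:**
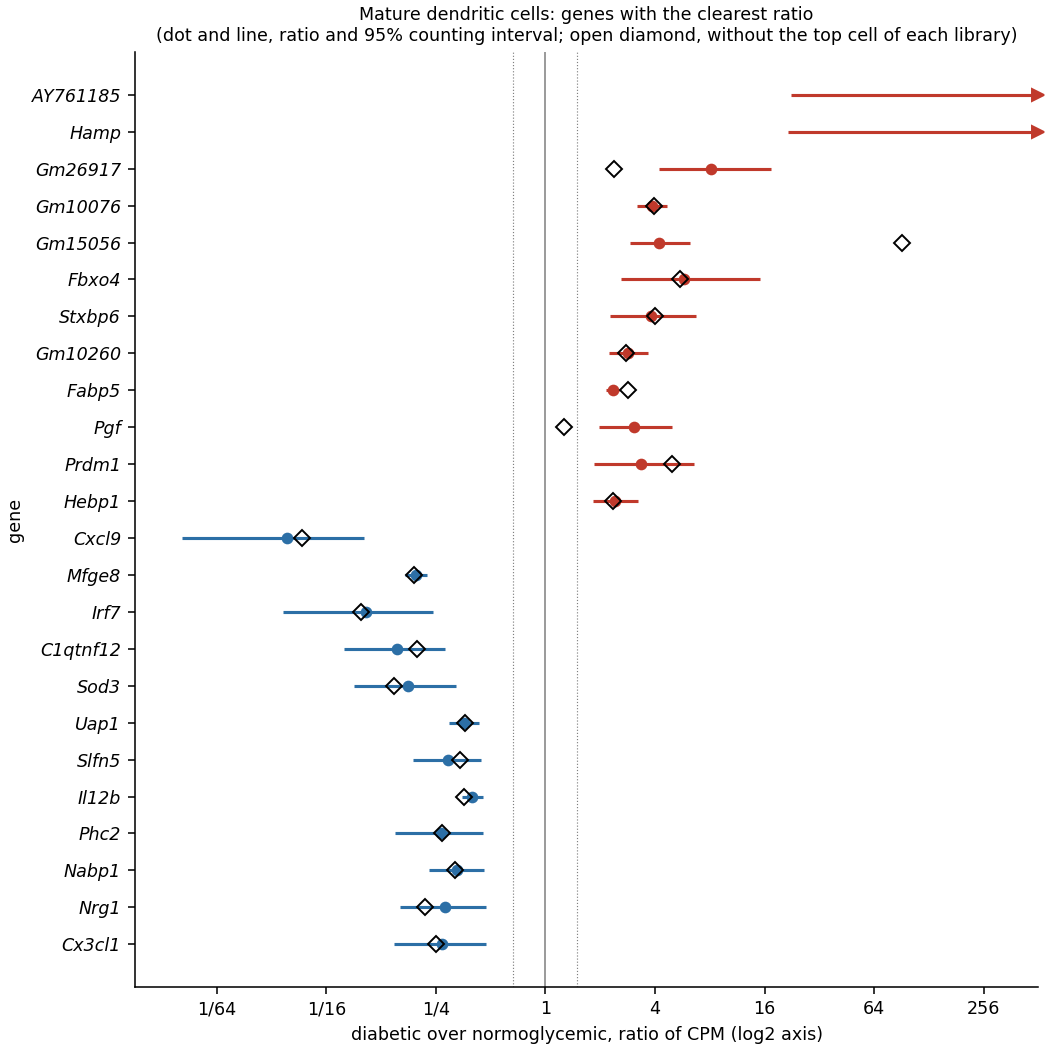
Points give the ratio of CPM, diabetic over normoglycemic (log2 axis), with its counting interval, for the 12 leading higher genes (red) and the 12 leading lower genes (blue), and open diamonds the ratio without the highest cell of each library. Arrows mark genes at 0 in normoglycemic cells, Fabp5 lies at 2.35 and Mfge8 at 0.194, and the diamond of Pgf lies at 1.26.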

How the data were processed

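Single-cell RNA was captured with 10x Chromium 3′ v3 chemistry from sorted gingival cells, 1 diabetic and 1 normoglycemic library of 4 pooled mice each. The deposited values are unnormalized counts of UMIs for each gene in each barcode, which the authors made with Cell Ranger (4.0.0 per the file headers, 6.0.2 per the submitters' processing notes) on mm10. The libraries held 78220582 UMIs in 10496 barcodes (diabetic) and 89339733 UMIs in 11280 barcodes (normoglycemic). The quality filter required 500 UMIs and 200 detected genes or more, with mitochondrial UMIs no higher than 15%. No doublet caller was run. The limits on genes of other lineages took its place, and an alternative left out the cells above the 95th percentile of UMIs.

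Counts were summed per class and library and scaled to CPM by total UMIs (Python 3.11.15, numpy 2.4.6, scipy 1.17.1, pandas 2.3.3, matplotlib 3.10.9). Type 1-like cells met the same limits with at most 1 UMI of Ccr7 plus Fscn1 and at least 2 UMIs of Xcr1 plus Clec9a. Type 2-like cells had at least 1 UMI of Cd209a, at least 3 UMIs of Cd209a, Clec10a and Mgl2 together and none of Xcr1 or Clec9a. B-like cells, with Cd79a, with Ms4a1 or Cd79b and without Cd3e, gave the background for shares of cells with a UMI. A gene was measured at 20 CPM or more in either library. Ratios carry exact conditional binomial intervals, and log2 ratios of single genes a pseudocount of 0.5. There were no replicates, so no test was run and the direction of a ratio carries no p-value. TMM factors came from edgeR 4.0.16 in R 4.3.3. The computation was tested on simulated data.

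Leading genes between conditions reached 50 CPM in the library with the higher level and 50 UMIs in all, stood there no lower than in all other cells, and had an interval wholly past 1.5-fold, up to 12 per direction. Leading genes over conventional cells had at least 100 CPM and ranked by the smallest of 4 ratios, 15 higher and 10 lower. Other list members were named as the 4 highest on the side of the median or after their values were seen. The class, the gene lists and the comparisons were chosen with earlier results of these data known. Promoters are RefSeq of GRCm38.p6, and gene positions GENCODE M21, in which 32235 of 32285 feature IDs were found.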

Additional observations from a re-analysis of the deposited data

Results flagged for a closer look

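The files also hold 4 antibody capture features, named C1 to C4, whose targets are not given in the sources used here, and mature dendritic cells carried UMIs of each. In diabetic mature cells they summed to 76 UMIs of C1, 1960 of C2, 988 of C3 and 102 of C4, and in normoglycemic mature cells to 93, 167, 185 and 178 UMIs. In the diabetic library 1832 of the C2 UMIs and 887 of the C3 UMIs came from 1 cell each. Without the highest cell the sums were 67, 128, 101 and 95 UMIs in diabetic and 86, 157, 172 and 168 UMIs in normoglycemic cells. The medians per mature cell, 1, 2, 1 and 1.5 UMIs in diabetic and 1, 3, 3 and 4 UMIs in normoglycemic cells, stood beside medians of 0, 1, 1 and 1 UMIs and 1, 2, 2 and 2 UMIs in all other cells of those libraries.

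Il1b stood at a ratio of 2.92 in cells called female and 0.741 in cells called male, diabetic over normoglycemic, so the direction differed between the sexes. That difference was not tested, and the diabetic female cells were 7.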

How the results depend on the processing

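No paired analysis was possible because each condition was 1 library. Of gene ratios recomputed under the alternatives, 302 stayed within the counting interval, 45 moved beyond it and 2 reversed. Of list medians, 383 stayed within their interval, 22 moved beyond it and 1 reversed, but staying within it did not mean that direction was kept: 21 medians changed sign, most of them within an interval that included 0. Among these were chemokines at 0.20, immediate early genes at 0.11 and glycolysis at 0.0371 with S100a8 plus S100a9 under 1%, and cell cycle at 0.14 without cells above the 95th percentile of UMIs. With all limits applied after thinning (35 diabetic and 34 normoglycemic cells) the mature share of gated dendritic cells differed by 22.7 points, and list medians on the log2 scale were 0.14 for cytokines, -0.13 for pattern recognition, -0.10 for mitochondrially encoded and 0.58 for ribosomal genes. The ribosomal median was 0.42 with S100a8 plus S100a9 under 1%, 0.58 with TMM scaling and 0.60 with median-ratio scaling. Those scalings gave 0.37 and 0.39 for nuclear-encoded respiratory genes, and median-ratio scaling -0.11 for MHC class I. Without cells above the 95th percentile the glycolysis median was 0.22. At 100 CPM or more 104 genes were higher and 227 lower, and with no filter 3001 and 3490. In cells called male 958 genes were higher, and medians were -0.997 for maturation, -0.14 for mitochondrially encoded and 0.62 for ribosomal genes. In cells called female (7 diabetic and 17 normoglycemic) 1285 genes were higher and 1664 lower, the regulatory list reversed to 0.26, and Pgf (log2 -0.26) and Slfn5 (0.41) reversed. Female medians were also 0.88 for MHC class II, -0.0513 for shared dendritic identity, 0.53 for glycolysis, 0.11 for nuclear-encoded respiratory, 0.16 for survival, 0.36 for antioxidant, -1.85 for cell cycle and 0.0618 for ribosomal genes. The cause was not tested. Leaving out the highest cell of each gene, keeping cells with over 20 UMIs of the pair, and changing the gates for conventional cells were chosen after seeing the data. With 103 cells, genes under 20 CPM rest on a handful of UMIs.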

Other observations

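Ratios here are diabetic over normoglycemic, and a gene is called at 1.5-fold. For pattern recognition, 11 of 31 listed genes were measured, 1 of them higher and 6 lower, against 11.8% higher and 20.6% lower over all genes. Nlrp3, the sensor of the inflammasome that releases interleukin 1 beta, stood at 72.99 CPM in diabetic and 253 CPM in normoglycemic cells, a ratio of 0.289 (0.213 to 0.388), and the C-type lectin Clec4e at 153 CPM in diabetic and 317 CPM in normoglycemic cells, a ratio of 0.483 (0.386 to 0.602). The list median was log2 -0.65, and -0.13 when all limits were applied after thinning to 2000 UMIs. Neutrophil markers also differed, at 1601 CPM in diabetic and 4032 CPM in normoglycemic mature cells, and their part was not tested. For antioxidant and stress genes, 22 of 23 listed genes were measured, 3 of them higher and 2 lower. The metallothioneins Mt1 and Mt2, which bind zinc and copper, were both on the higher side: Mt1 stood at 733 CPM in diabetic and 231 CPM in normoglycemic cells, a ratio of 3.17 (2.66 to 3.79), and Mt2 at 153 CPM in diabetic and 57.1 CPM in normoglycemic cells, a ratio of 2.68 (1.87 to 3.92). Mt1 stood at 1776 CPM in diabetic and 1125 CPM in normoglycemic cells outside the class. For immediate early and heat shock genes, 28 of 31 listed genes were measured, 1 of them higher and 8 lower, with the nuclear receptor Nr4a2 at 125 CPM in diabetic and 309.8 CPM in normoglycemic cells, a ratio of 0.403 (0.316 to 0.510), and Fos at 243 CPM in diabetic and 119.9 CPM in normoglycemic cells, a ratio of 2.02 (1.56 to 2.64). These genes were singled out after their values were seen.

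In the cholesterol and lipid list, 15 of 27 listed genes were measured, 2 of them higher and 5 lower, and in the glycolysis and glucose uptake list, 19 of 24 listed genes were measured, 0 of them higher and 4 lower, with medians of log2 -0.46 and -0.25. For uptake and lysosome genes, 16 of 27 listed genes were measured, 2 of them higher and 0 lower, with the lysozyme gene Lyz2 at 271 CPM in diabetic and 101 CPM in normoglycemic cells, a ratio of 2.67 (2.04 to 3.54). In cells with over 20 UMIs of Ccr7 plus Fscn1, Lyz2 stood at 170 CPM in diabetic and 57.5 CPM in normoglycemic cells. For survival and death genes, 19 of 22 listed genes were measured, 2 of them higher and 4 lower, with the pro-apoptotic gene Bad at 34.1 CPM in diabetic and 5.71 CPM in normoglycemic cells and the inhibitor Xiap at 40.03 CPM in diabetic and 91.4 CPM in normoglycemic cells, a ratio of 0.438 (0.280 to 0.674). For advanced glycation and S100 genes, 10 of 13 listed genes were measured, 3 of them higher and 2 lower, with S100a6 at 3749.8 CPM in diabetic and 2387 CPM in normoglycemic cells, a ratio of 1.57 (1.48 to 1.67). The 2 lower ones were S100a8, at 489 CPM in diabetic and 1368 CPM in normoglycemic cells, and S100a9, at 932 and 2296 CPM. Both are genes of the rule, so their levels carry no finding. For shared dendritic cell identity, 13 of 14 listed genes were measured, 0 of them higher and 3 lower, among the lower ones Flt3 at 122 CPM in diabetic and 206 CPM in normoglycemic cells, a ratio of 0.596 (0.458 to 0.772), and the transcription factor Irf8 at 575 CPM in diabetic and 935 CPM in normoglycemic cells, a ratio of 0.614 (0.545 to 0.692). For the type 1 identity list, 7 of 18 listed genes were measured, 0 of them higher and 3 lower, for the type 2 list, 14 of 20 listed genes were measured, 2 of them higher and 4 lower, for the Langerhans list, 9 of 13 listed genes were measured, 1 of them higher and 5 lower, for the cell cycle list, 9 of 24 listed genes were measured, 2 of them higher and 3 lower, and for chemokine receptors other than Ccr7, 5 of 17 listed genes were measured, 1 of them higher and 2 lower.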
